A study of Mus musculus with 11 samples.

Results

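AMPA receptors carry most fast excitatory transmission in the brain, and the genes described here encode their pore-forming subunits and the auxiliary subunits that travel with them. The 10 members were chosen by gene name: Gria1, Gria2, Gria3 and Gria4, the TARP genes Cacng2, Cacng3, Cacng5 and Cacng8, and the cornichon genes Cnih2 and Cnih3. All 10 were found among the 17118 genes of the table, and all 10 passed the filter on low counts. The study measured gene expression in hippocampal punches of female C57/BL6J mice, whose treatment began at 12 weeks of age with 8 weekly intraperitoneal injections. In 5 mice these were AC-T: the first 4 gave doxorubicin at 2 mg/kg together with cyclophosphamide at 50 mg/kg, and the last 4 gave paclitaxel at 5 mg/kg. The 6 control mice were injected with 0.9% saline. Samples carry a 1-month label, and there was 1 library per mouse. AC-T is a breast cancer chemotherapy, and the series asks about the gut, the microbiome and cognition after it; the mice carried no tumour or transgene that the labels name.

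An AMPA receptor is a tetramer of subunits GluA1 to GluA4, which Gria1 to Gria4 encode. TARPs are membrane proteins that bring the receptor to the synapse, and most tie it to postsynaptic scaffolds and slow its closing, and cornichons are small membrane proteins that aid its export and also slow its closing. In hippocampal pyramidal neurons GluA1 and GluA2 predominate and the TARP encoded by Cacng8 and the cornichon encoded by Cnih2 are prominent partners, whereas GluA4 is known from interneurons, the thalamus and the cerebellum. A receptor with GluA2 passes little calcium, because a glutamine codon in the pore loop of its RNA is rewritten to arginine by the editing enzyme ADAR2, which Adarb1 encodes.

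That codon is shown in capitals, within the surrounding 45 bases of the 4 subunit transcripts (GENCODE M21, GRCm38), since the editing enzyme is among the genes that differed below.
Gria1: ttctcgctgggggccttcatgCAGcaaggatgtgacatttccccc
Gria2: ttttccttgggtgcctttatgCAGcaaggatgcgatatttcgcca
Gria3: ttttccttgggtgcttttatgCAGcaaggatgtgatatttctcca
Gria4: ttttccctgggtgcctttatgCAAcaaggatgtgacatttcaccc
Of the 45 bases, Gria2 and Gria3 differ at 3, Gria1 and Gria2 at 9, Gria1 and Gria3 at 9, and Gria4 differs from each of the others at 6. Among AMPA receptor subunits only the GluA2 RNA is known to be edited at this codon, and the level of editing was not analysed here. Reads shared by genes of similar sequence are divided by probability in the quantification. Every one of the 110 values of the members (10 genes in 11 libraries) was a whole number, from 357 to 23889 counts. Whole values were the norm, since 13.7% to 14.7% of all values in a library had a fraction. How many reads the subunits share was not tested.

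Library totals ran from 23.4 to 32.1 M counts. Xist, which female cells express from the inactive X chromosome, had a listed value of 0 in saline 300, against 13057 to 22963 counts elsewhere. Calls of the members, and of named genes of the receptor complex and its traffic that passed, are therefore also given without saline 300. Markers of the hippocampal subfields were present in every library: the summed level of 8 dentate granule neuron markers was 327 to 480 CPM after AC-T and 450 to 558 CPM after saline (CPM, read counts scaled to a common library size). Markers of neighbouring tissue, and of some cell types found within the hippocampus, differed between the groups. Of 14 thalamic markers 12 fell and 0 rose after AC-T, with a summed level of 456 to 699 CPM against 897 to 1550 CPM, and Gbx2 was listed at 0 in at least 1 library. Of 8 CA1 pyramidal neuron markers 1 rose and 0 fell, with a summed level of 510 to 665 CPM against 134 to 420 CPM. Of 10 neocortical markers 5 rose and 1 fell, and of 12 interneuron markers 4 rose and 1 fell. Of 9 astrocyte markers 3 fell, and of 10 oligodendrocyte and 8 microglial markers 0 passed in edgeR. In bulk tissue fewer cells of a type and less RNA per cell cannot be told apart.

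Mouse numbers begin with 2 or 3 in saline and with 5 or 6 in AC-T. What this first digit marks is not given in the labels, and no digit holds both treatments. Within saline, mice 201 to 203 had thalamic sums of 1299 to 1550 CPM and mice 300 to 302 had 897 to 1044 CPM. Their CA1 sums were 134 to 304 and 368 to 420 CPM. The division matters for the members, because by point estimate 7 of the 10 differed more between these sets of saline mice than between AC-T and saline.

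To ask whether AC-T altered the AMPA receptor genes, expression in the 5 AC-T mice was set against that in the 6 saline mice. Of the 10 members, Cacng3 and Gria3 rose, Cacng5 fell, and 7 did not pass an adjusted p of 0.05 (edgeR quasi-likelihood test, Benjamini-Hochberg over 15353 genes). Over all genes tested 8.47% passed, 4.89% higher and 3.58% lower. By unadjusted p under 0.05 it was 5 of the 10 members, against 24.9% of all genes. The groups' ranges did not overlap for the same 3 members, against 7.52% of all genes (4.42% higher and 3.1% lower). The median log2 fold change was 0.19 over the members and −0.003 over all genes, where the median absolute change was 0.11. The members were chosen with earlier results of these data known, so their counts beside those shares are a description.

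**Figure D1:**
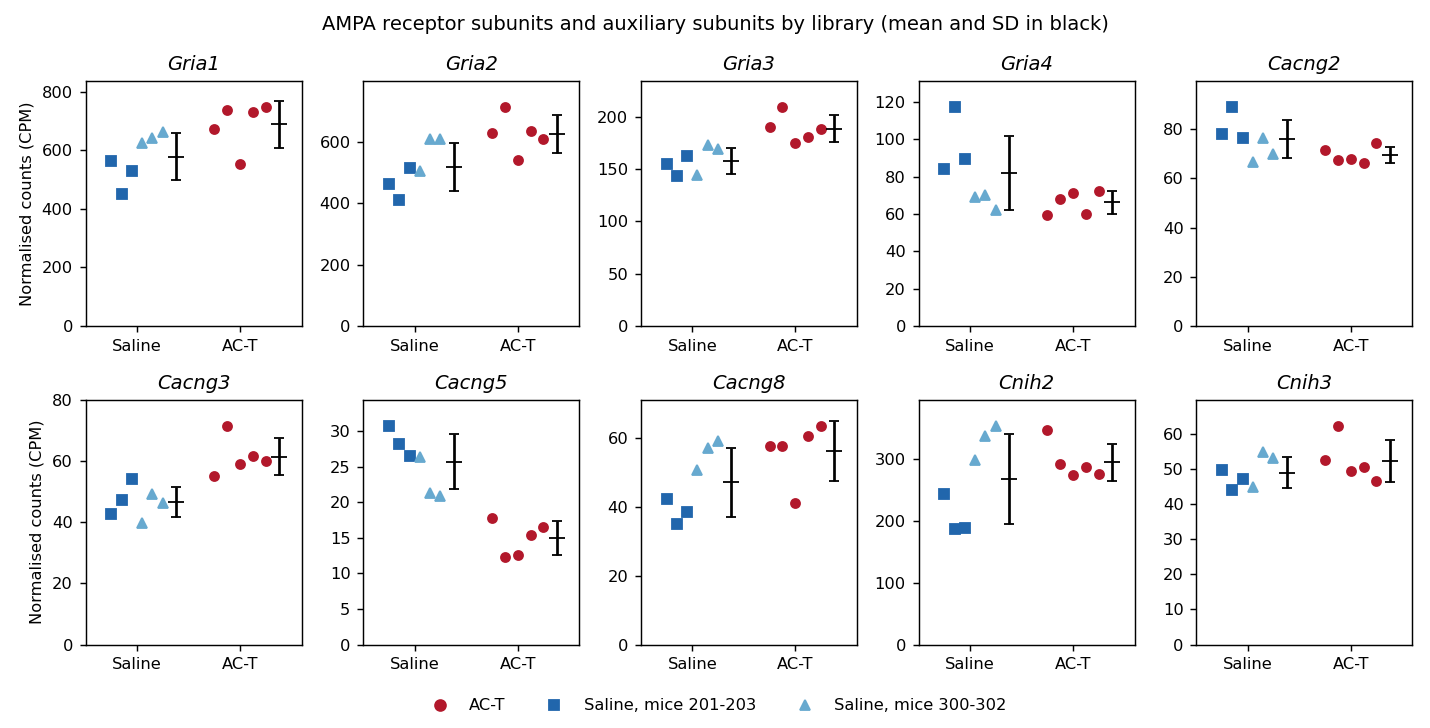
Normalised counts (CPM, linear axis from 0) of each of the 10 genes in each library; squares and triangles are the sets of saline mice, circles are AC-T, and the black bars are the mean and SD of each group (n = 6 and 5). Cacng5 in AC-T lies between 12.4 and 17.8 CPM, below all saline libraries, while for Gria4 and Cnih2 the sets of saline mice lie apart.

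Among the pore-forming subunits Gria3 was the gene whose groups separated. GluA3 pairs mainly with GluA2. Gria3 stood at 190, 209, 175, 180 and 188 CPM in AC-T 501, 502, 503, 600 and 602, and at 143 to 173 CPM (median 159) in saline. The lowest AC-T library, 503, lay just above the highest saline library, 301. The change was a 1.19-fold rise (log2 0.26 ± 0.06 SE; 189 ± 13.0 against 158 ± 12.6 CPM, SD; edgeR adjusted p = 0.0308). The call is near the threshold: it ended when any 1 of 6 libraries was left out (AC-T 501, 502 or 602, saline 201, 202 or 300), the adjusted p reaching 0.0776 in the absence of AC-T 502 and 0.068 in that of saline 300.

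Gria1 and Gria2, which encode the subunits of the main receptor of pyramidal neurons, had log2 fold changes of the same size as Gria3 but a wider spread. Gria1 stood at 673, 737, 554, 731 and 747 CPM in AC-T 501, 502, 503, 600 and 602, and at 451 to 662 CPM (median 593) in saline. AC-T 503 was low and lay inside the saline range, and the other 4 AC-T libraries lay above it. The log2 fold change was 0.25 ± 0.11 (SE; edgeR adjusted p = 0.17). Gria2 stood at 627, 712, 541, 636 and 609 CPM in the same AC-T libraries, and at 412 to 609 CPM (median 509) in saline. Here AC-T 503 lay inside the saline range and AC-T 602 at its upper edge. The log2 fold change was 0.27 ± 0.11 (SE; edgeR adjusted p = 0.136).

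Gria4 leaned the other way. It stood at 59.6, 68.0, 71.5, 59.8 and 72.1 CPM in AC-T 501, 502, 503, 600 and 602, and at 62.4 to 117 CPM (median 77.1) in saline. The highest libraries were the saline mice 202, 203 and 201, at 117, 89.4 and 84.1 CPM, while saline 300, 301 and 302 (69.3, 70.0 and 62.4 CPM) lay among the AC-T libraries. The log2 fold change was −0.31 ± 0.14 (SE; edgeR adjusted p = 0.211). The thalamic sums were highest in the same saline mice, 201 to 203; the part of thalamic tissue in these values was not tested.

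Of the TARP genes, Cacng5 had the largest change of all members. Its product belongs to a class of TARPs whose effect on AMPA receptors depends on the subunits present. Cacng5 stood at 17.8, 12.4, 12.5, 15.4 and 16.5 CPM in AC-T 501, 502, 503, 600 and 602, and at 20.9 to 30.7 CPM (median 26.4) in saline. Every AC-T library was below every saline library, and within saline mice 301 and 302 were lowest. The thalamic sums, too, were lower in every AC-T library than in every saline library. Cacng5 fell to 0.583 of its saline level (log2 −0.78 ± 0.13 SE; 14.9 ± 2.41 against 25.6 ± 3.86 CPM, SD; edgeR adjusted p = 0.00555). The fall passed when each library was left out in turn (adjusted p 0.00419 to 0.0176, and 0.0126 without saline 300). It missed the threshold without saline 201 to 203 (log2 −0.61, adjusted p = 0.0504) and without AC-T 501 to 503 (−0.69, adjusted p = 0.0611), where 3 and 2 libraries remain in that group.

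Cacng3 moved in the opposite direction. Its product is a close relative of stargazin, the founding TARP, and is found in the forebrain. Cacng3 stood at 55.1, 71.7, 59.2, 61.9 and 60.2 CPM in AC-T 501, 502, 503, 600 and 602, and at 39.9 to 54.3 CPM (median 47.0) in saline. AC-T 502 was highest, and AC-T 501 lay only just above saline 203. The change was a 1.32-fold rise (log2 0.40 ± 0.08 SE; 61.6 ± 6.16 against 46.7 ± 5.04 CPM, SD; edgeR adjusted p = 0.0163). It passed when each library was left out in turn (adjusted p 0.0127 to 0.0412, and 0.0314 without saline 300). It missed the threshold without saline 300 to 302 (adjusted p = 0.0741), AC-T 501 to 503 (0.105) or AC-T 600 and 602 (0.0688).

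Cacng2, which encodes stargazin, and Cacng8 did not pass. Cacng2 stood at 71.6, 67.5, 67.9, 66.3 and 74.2 CPM in AC-T 501, 502, 503, 600 and 602, and at 66.7 to 88.9 CPM (median 76.5) in saline. Saline 300 and 302 lay among the AC-T libraries and the other 4 saline libraries above them (log2 −0.13 ± 0.07 SE; edgeR adjusted p = 0.256). Cacng8 stood at 57.7, 57.6, 41.1, 60.5 and 63.5 CPM in the same AC-T libraries, and at 35.1 to 59.0 CPM (median 46.4) in saline. AC-T 503 was low, as it was for Gria1 and Gria2, and the saline libraries divided by first digit, 201 to 203 at 35.1 to 42.2 CPM and 300 to 302 at 50.6 to 59.0 CPM (log2 0.25 ± 0.15 SE; edgeR adjusted p = 0.337). AC-T 503 also had the lowest dentate granule and CA1 marker sums in AC-T (327 and 510 CPM). Its astrocyte marker sum was the highest in AC-T (6083 CPM). The part of tissue content in these values was not tested.

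The cornichon genes did not pass. Cnih2 stood at 346, 292, 273, 286 and 276 CPM in AC-T 501, 502, 503, 600 and 602, and at 186 to 353 CPM (median 271) in saline. The AC-T libraries lay in the middle of the saline range, between saline 201 to 203 (186 to 244 CPM) and saline 300 to 302 (298 to 353 CPM), except AC-T 501, which lay among the latter. Cnih2 therefore had the widest error of the members (log2 0.14 ± 0.17 SE; edgeR adjusted p = 0.673). Cnih3 stood at 52.6, 62.3, 49.4, 50.6 and 46.5 CPM in AC-T and at 43.9 to 54.8 CPM (median 48.5) in saline. AC-T 502 was high and the others overlapped (log2 0.095 ± 0.08 SE; edgeR adjusted p = 0.519). Without saline 300, Gria1, Gria2, Gria4, Cacng2, Cacng8, Cnih2 and Cnih3 again did not pass (edgeR adjusted p 0.135 to 0.72).

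The members were then compared with each set of saline mice in a model with 4 group means. These comparisons share the AC-T libraries, so they are set side by side and their results are not independent. They were not repeated without saline 300, which belongs to the set 300 to 302. Against saline 201 to 203, 5 members were higher and 2 lower, where 11.7% of all genes passed. Against saline 300 to 302, 1 was higher and 1 lower, where 6.73% passed. Cacng5 passed in both, with log2 fold changes of −0.93 ± 0.13 and −0.62 ± 0.13 (SE; edgeR adjusted p = 0.00233 and 0.0269). Cacng3 was at 0.35 ± 0.11 and 0.44 ± 0.11 (adjusted p = 0.0628 and 0.0418), and Gria3 at 0.30 ± 0.08 and 0.22 ± 0.08 (adjusted p = 0.0382 and 0.108). These 3 genes had the same direction against either set, as did every other member except Cnih2.

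The point estimates of other members were further apart. Gria4 was at −0.55 ± 0.11 against saline 201 to 203 and at −0.02 ± 0.12 against saline 300 to 302 (SE; edgeR adjusted p = 0.0153 and 0.928). Cacng8 was at 0.53 ± 0.12 and 0.01 ± 0.11 (adjusted p = 0.0184 and 0.976), and Cnih2 at 0.52 ± 0.11 and −0.16 ± 0.11 (adjusted p = 0.0179 and 0.368). Gria1 was at 0.42 ± 0.10 and 0.097 ± 0.096 (adjusted p = 0.0235 and 0.562), and Gria2 at 0.43 ± 0.11 and 0.12 ± 0.11 (adjusted p = 0.0303 and 0.496).

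The saline sets were compared with each other as the test of that difference. Saline 300 to 302 had 1.03% of all genes past the threshold against saline 201 to 203, and 1 of the 10 members, Cnih2, which was higher (log2 0.68 ± 0.12 SE; edgeR adjusted p = 0.0418). Cacng8 was at 0.52 ± 0.13 and Gria4 at −0.53 ± 0.13 (adjusted p = 0.0793 for both), and neither passed. Gria1 and Gria2 were at 0.32 ± 0.11 and 0.31 ± 0.12 (adjusted p = 0.145 and 0.187), and Cacng5 was as far apart, at −0.32 ± 0.14 (adjusted p = 0.248). Cacng3 and Gria3 were at −0.09 ± 0.12 and 0.08 ± 0.09 (adjusted p = 0.73 and 0.668). Cacng2 and Cnih3 were at −0.19 ± 0.08 and 0.12 ± 0.10 (adjusted p = 0.198 and 0.575). By unadjusted p under 0.05 in edgeR the saline sets differed for Cnih2, Cacng8, Gria4, Gria1, Gria2, Cacng2 and Cacng5. After adjustment, dependence of a difference from AC-T on the saline set was shown for Cnih2. For the other members it was neither shown nor excluded. Between AC-T 600 and 602 and AC-T 501 to 503, 0 of the members passed in edgeR, where 0.117% of all genes did, and 0 had an unadjusted p under 0.05. With the first digit as a random effect (limma-voom), Cacng5 passed (log2 −0.77, adjusted p = 0.0263), and Cacng3 and Gria3 did not (0.40 and 0.26, adjusted p = 0.0806 and 0.124).

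**Figure D2:**
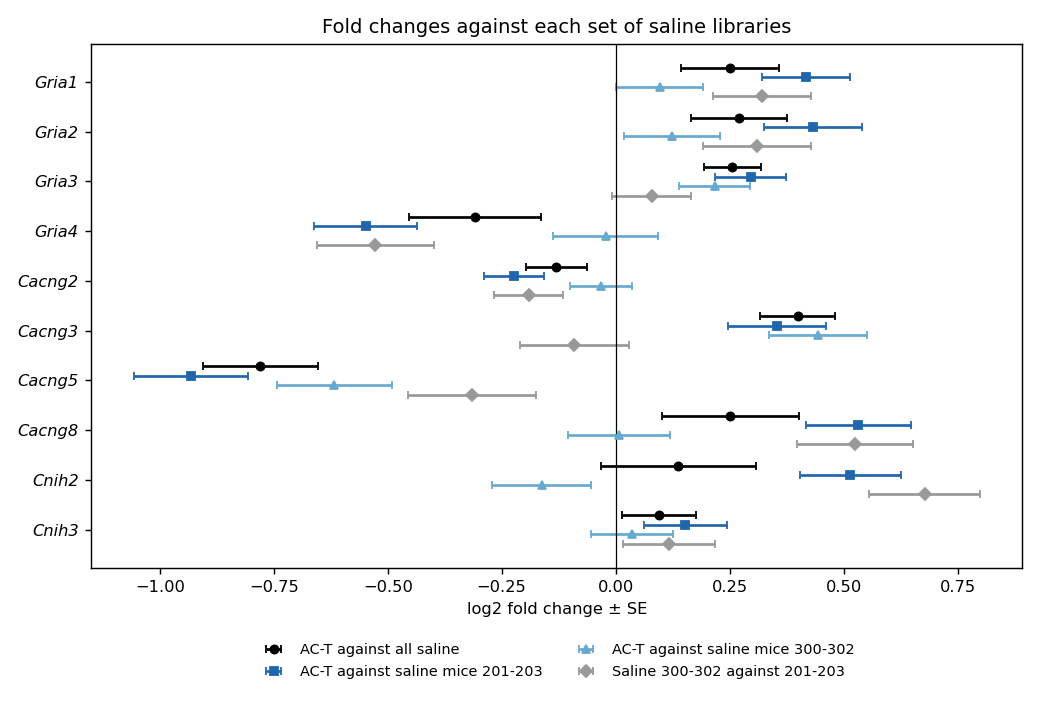
Log2 fold change with its SE for each gene: AC-T against all 6 saline libraries (black), against saline mice 201 to 203 and 300 to 302 (blue), and between these saline sets (grey). All members except Cnih2 keep their side of 0 against either set. The grey values of Gria4, Cacng8 and Cnih2 (−0.53, 0.52 and 0.68) are close in size to their AC-T values against saline 201 to 203.

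The thalamic and CA1 marker scores (mean log2 CPM of the list) were set beside the members. The thalamic score was 4.29 to 5.12 after AC-T, 5.41 to 5.66 in saline 300 to 302 and 6.08 to 6.35 in saline 201 to 203, so it did not overlap between treatments. With this score as covariate 0 of the 10 members passed in edgeR, and 0 had an unadjusted p under 0.05; 1 of the 15353 genes passed. Cacng5 was then at −0.22 (adjusted p = 0.757), Cacng3 at 0.29 (adjusted p = 0.668) and Gria3 at 0.16 (adjusted p = 0.755). The values of Gria1, Gria2, Gria4, Cacng2, Cacng8, Cnih2 and Cnih3 changed sign. Because the score separates the treatments, tissue content and treatment cannot be told apart in this fit. With the CA1 score as covariate, added after seeing the data, 0 members passed as well, 1 having an unadjusted p under 0.05, and 10 of the 15353 genes passed, with Cacng5 at −0.49 (adjusted p = 0.236), Cacng3 at 0.25 (adjusted p = 0.378) and Gria3 at 0.15 (adjusted p = 0.492). The CA1 score was 5.66 to 6.10 after AC-T, 2.93 to 4.89 in saline 201 to 203 and 4.33 to 5.32 in saline 300 to 302. This score, too, separates the treatments, so the same limit holds for its fit.

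**Figure D3:**
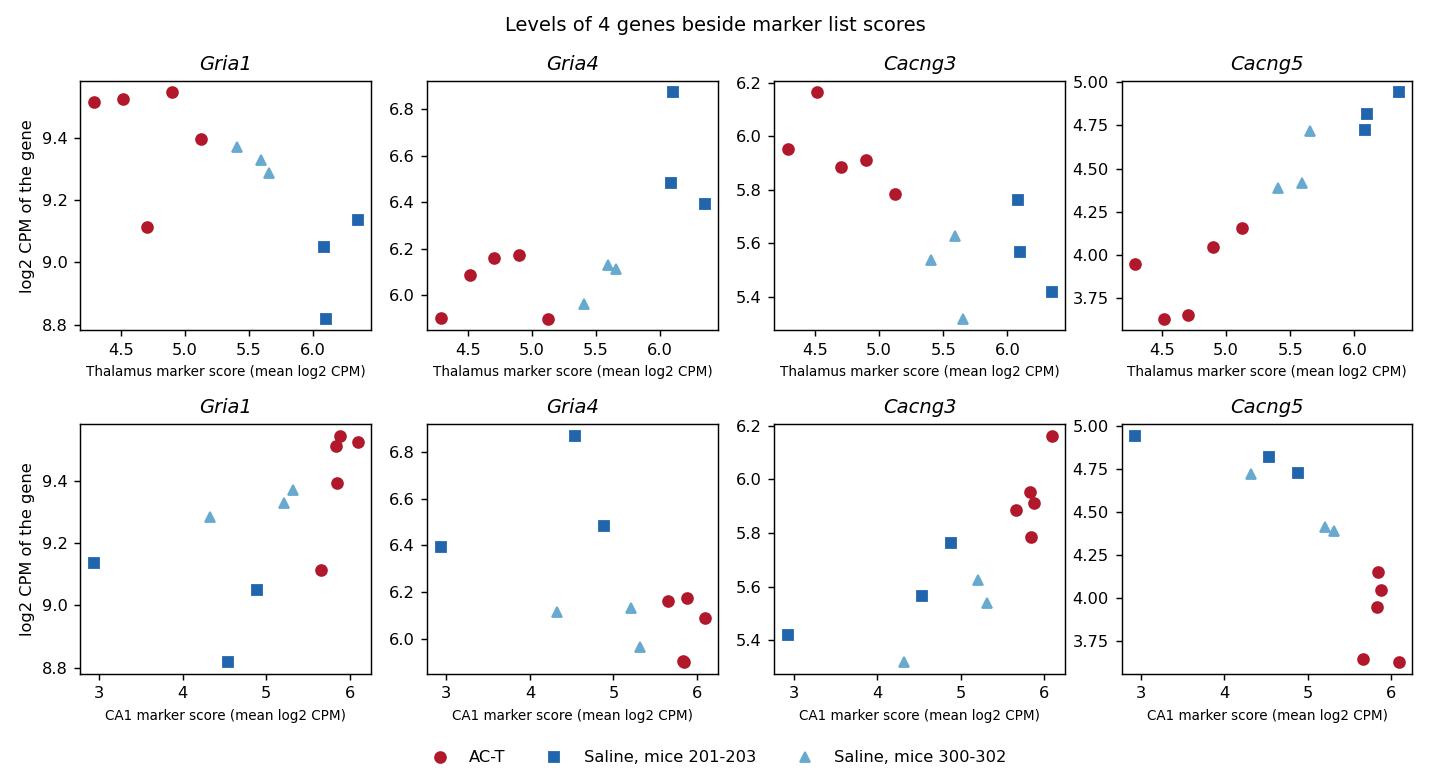
Log2 CPM of Gria1, Gria4, Cacng3 and Cacng5 (vertical axes) against the thalamic score (upper row) and the CA1 score (lower row) of the same library, both mean log2 CPM; symbols as in the plot of the members by library. The AC-T libraries have the lowest thalamic scores (4.29 to 5.12) and the highest CA1 scores (5.66 to 6.10), and Cacng5 is lowest in them.

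The ratio of a pair of genes in 1 library does not depend on how libraries are scaled, so 8 ratios were compared by a two-sided exact permutation test over the 462 ways of assigning 5 libraries to AC-T, adjusted over the 8. Only 1 passed, Cacng3 to Cacng2. Its log2 value was −0.38, 0.09, −0.20, −0.10 and −0.30 in AC-T 501, 502, 503, 600 and 602, and −0.91 to −0.50 (median −0.69) in saline. The AC-T libraries were all above the saline libraries. The difference was 0.53 (−0.18 ± 0.18 against −0.71 ± 0.16, SD, n = 5 and 6; exact permutation p = 0.00216, the smallest this design allows, and 0.0173 adjusted). It was 0.46 to 0.58 when each library was left out in turn. Without any 1 of the 6 saline libraries the smallest adjusted p that a ratio can reach alone is 0.0635, which this one had.

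The make-up of the pore subunits was less distinct. Gria1 to Gria2 differed by −0.02 on the log2 scale (0.14 ± 0.11 against 0.16 ± 0.11, SD, n = 5 and 6; exact permutation p = 0.714, 0.76 adjusted), and Gria3 to Gria2 also by −0.02 (exact permutation p = 0.76, 0.76 adjusted). Gria4 to Gria2 differed by −0.56 (−3.24 ± 0.23 against −2.68 ± 0.53, SD, n = 5 and 6; exact permutation p = 0.0541, 0.179 adjusted) and Gria4 to Gria1 by −0.54 (exact permutation p = 0.0671, 0.179 adjusted). Gria4 made up 3.72% to 5.32% of the counts of the 4 Gria genes after AC-T, and 4.15% to 10.4% after saline, the highest share being in saline 202. Cacng2 to Cacng8 differed by −0.39, Cacng3 to Cacng8 by 0.14 and Cnih3 to Cnih2 by −0.09 (exact permutation p = 0.102, 0.494 and 0.608, and 0.203, 0.76 and 0.76 adjusted).

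Among the counts of the 4 TARP members, Cacng5 took 5.91% to 8.80% after AC-T and 10.4% to 15.9% after saline. Cacng3 took 27.3% to 34.3% after AC-T and 21.7% to 27.7% after saline. The first pair of ranges did not overlap; the second did, AC-T 501 lying below saline 203. Cacng2 took 34.5 ± 2.19% and 38.9 ± 3.26%, and Cacng8 27.6 ± 2.85% and 24.1 ± 5.08% (SD, n = 5 and 6). These are shares of counts and are not weighted by transcript length.

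**Figure D4:**
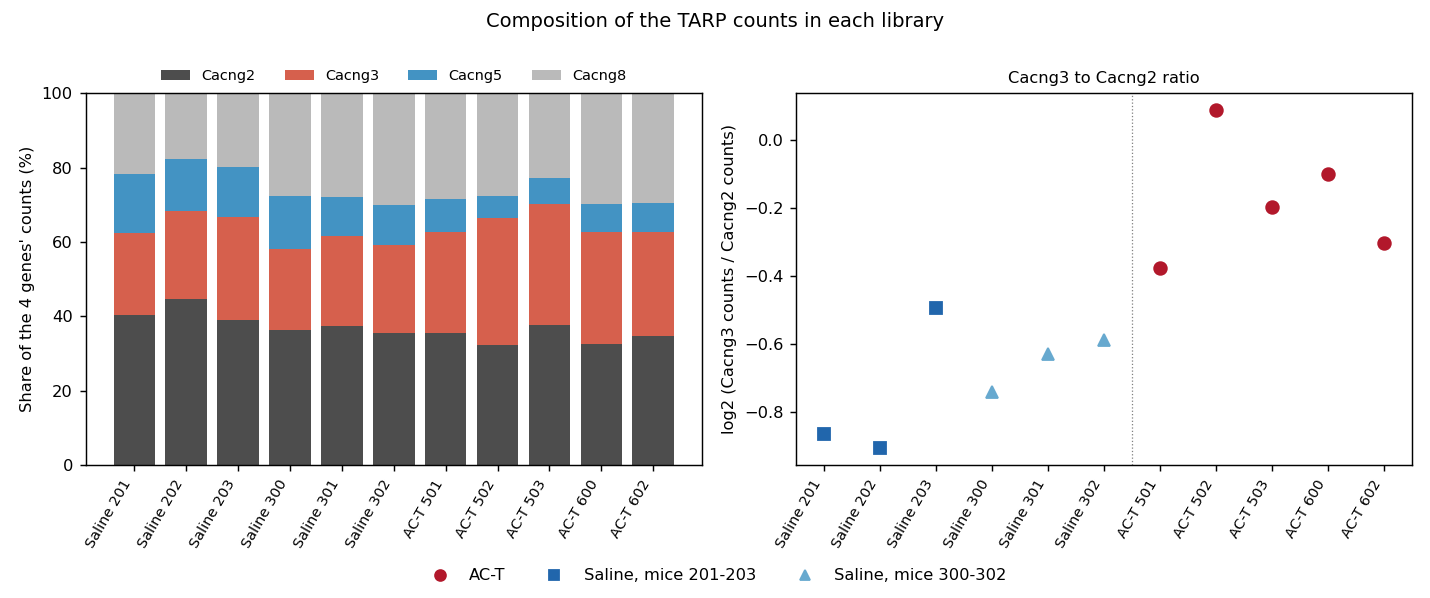
Left, share of each TARP gene in the counts of the 4 genes (percent, stacked bars, 1 bar per library); right, log2 ratio of Cacng3 to Cacng2 counts in each library. The Cacng5 segment is 5.91% to 8.80% in AC-T and 10.4% to 15.9% in saline, and all 5 AC-T ratios (−0.38 to 0.09) lie above the 6 saline ratios (−0.91 to −0.50).

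Levels of different genes were compared per kilobase of the longest annotated transcript, on the CPM scale. In saline Cnih2 had the highest level (199 ± 54.3 CPM per kilobase, SD, n = 6), followed by Gria1 (104 ± 14.4), Gria2 (49.99 ± 7.60) and Gria3 (30.3 ± 2.41). The saline ranges of these 4 neighbours did not overlap. Cacng8 (24.8 ± 5.24), Cnih3 (18.3 ± 1.66), Cacng3 (16.8 ± 1.82), Gria4 (15.1 ± 3.66) and Cacng2 (13.8 ± 1.39) followed, each overlapping in range with the next, and Cacng8 overlapped with Gria3. Cacng5 was lowest (6.92 ± 1.04) and overlapped with none. After AC-T the order of the means was Cnih2, Gria1, Gria2, Gria3, Cacng8, Cacng3, Cnih3, Cacng2, Gria4 and Cacng5, so Cacng3 (22.2 ± 2.22, SD, n = 5) stood above Cnih3 (19.6 ± 2.25), with overlapping ranges. The order depends on the transcript taken as the length: with the median annotated length Gria2 (145 ± 22.1) stood above Gria1 (108 ± 14.9) in saline, and Cacng3 (51.1 ± 5.52) above Gria3 (43.3 ± 3.45).

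Cacng5 had the largest change of the members, and its promoter window is shown for that reason (250 bases before to 50 after the start site, RefSeq, GRCm38.p6). Promoters were matched for 8 of the 10 members. Capitals mark GGGCGG, the GC box, on either strand.
Cacng5, chr11:107915006-107915305, minus strand: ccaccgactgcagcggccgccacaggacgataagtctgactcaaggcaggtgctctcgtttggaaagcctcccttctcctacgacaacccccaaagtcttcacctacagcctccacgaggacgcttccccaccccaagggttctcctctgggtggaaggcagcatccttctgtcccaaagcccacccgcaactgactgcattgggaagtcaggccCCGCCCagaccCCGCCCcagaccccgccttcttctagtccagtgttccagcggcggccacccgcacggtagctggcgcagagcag
In all 5 motifs were searched on both strands, none of which contains another. Of all 32851 promoter windows 35.7% hold GGGCGG, 13.6% hold TATAAA (the TATA box), 1.79% hold TGACGTCA (the cAMP response element), 0.612% hold GCGTGGGCG (an Egr site) and 3.73% hold CTTTGAT (a TCF/LEF core). The Cacng5 window holds the GC box at 2 places on the strand opposite to the one printed, so the capitals show its reverse complement. Among the other members the GC box is at 3 places in Cnih2 and at 1 in Cnih3, and the other 4 motifs are in none of these windows. A second Cacng5 start site in RefSeq holds none of the 5.

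The genes whose levels ran closest to these members were sought by Pearson's r of log2 CPM over the 11 libraries after subtracting each group's mean, among 11206 genes, as a description that shares library scaling and depth. For Cacng3 they were Sidt1 (r = 0.914), Syt5 (0.909), Ssbp2 (0.903), Tmppe (0.903) and Gm6984 (0.8998). Of these Syt5, a synaptotagmin of secretory vesicles, also rose (log2 0.46, edgeR adjusted p = 0.00454). For Cacng5 they were Slc29a1 (r = 0.932), Gm10501 (0.9295), Srgap1 (0.919), Wnt3 (0.914) and Ramp3 (0.913). Of these Slc29a1, a nucleoside transporter, fell (log2 −0.52, adjusted p = 0.0157), as did Srgap1, a GTPase activating protein of the Slit-Robo pathway (−0.54, adjusted p = 0.0108), Wnt3, a Wnt ligand (−0.77, adjusted p = 0.0196), and Ramp3, a partner of calcitonin-family receptors (−1.06, adjusted p = 0.0124).

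Other genes of the AMPA receptor complex and its traffic were read from the same fit. Of 44 genes 4 rose and 5 fell (20.5%, against 8.47% of all genes), with a median log2 fold change of 0.10. The lists were chosen with earlier results for some of their genes known, among them Adarb1, so the count is a description.

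Among 17 other auxiliary and complex proteins 1 rose and 3 fell (median −0.03). Shisa9, which encodes the AMPA receptor modulator CKAMP44, fell to 0.743 of saline (52.8 ± 1.91 against 71.1 ± 9.79 CPM, SD; edgeR adjusted p = 0.0136). Its log2 fold changes against saline 201 to 203 and 300 to 302 were −0.55 and −0.30 (adjusted p = 0.00326 and 0.0545), and the call ended with the first digit as random effect (limma-voom adjusted p = 0.0503) and without AC-T 501 to 503 (0.149) or 600 and 602 (0.0595). Vwc2, which encodes brorin, a secreted protein found with native AMPA receptors, fell to 0.616 (6.27 ± 0.486 against 10.2 ± 1.93 CPM; adjusted p = 0.00985). Its values against the saline sets were −0.91 and −0.45 (adjusted p = 0.000569 and 0.0282), and the call ended without AC-T 501 to 503 (0.105) or 600 and 602 (0.0551). Cacng7, a TARP of the same class as Cacng5, fell to 0.860 (adjusted p = 0.0392), a call that ended without any 1 of 8 libraries, AC-T 502, 600 or 602 or saline 202, 203, 300, 301 or 302 (highest 0.0878, without AC-T 502), and with the random effect (limma-voom, 0.155). Prrt2, a synaptic protein of vesicle release, rose 1.27-fold (adjusted p = 0.0301), a call that ended without AC-T 502, 600 or 602 or saline 203 or 300 (highest 0.0754, without AC-T 502), with scaling to library totals (0.0533) and with the random effect (limma-voom, 0.11). Against the saline sets Cacng7 was at −0.23 and −0.21 and Prrt2 at 0.33 and 0.35, and neither passed in either (adjusted p 0.0533 to 0.103). The calls of Cacng7 and Prrt2 also ended when the mice of any 1 first digit were left out (adjusted p 0.0611 to 0.149). The other TARP in the list, Cacng4, was at −0.35 ± 0.12 (SE; adjusted p = 0.104). Shisa7 (log2 0.41) and Olfm3 (−0.47) passed against saline 201 to 203 alone (edgeR adjusted p = 0.0235 and 0.0161). Neither passed against saline 300 to 302 or against all saline libraries.

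Of 6 genes of receptor assembly in the endoplasmic reticulum 0 passed against all saline libraries in edgeR and in limma-voom and 2 in DESeq2 (median 0.11). By unadjusted p under 0.05 there were 3 in edgeR: Frrs1l, which is needed for assembly, at 0.20 ± 0.07 on the log2 scale (SE; adjusted p = 0.103), Cpt1c at 0.11 ± 0.05 (adjusted p = 0.166) and Abhd12 at 0.14 ± 0.05 (adjusted p = 0.091).

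Of 18 genes of trafficking, anchoring and clustering 3 rose and 0 fell (median 0.17). Akap5, which anchors protein kinase A and calcineurin at AMPA receptors, rose 1.51-fold (57.2 ± 7.41 against 37.8 ± 3.93 CPM, SD; edgeR adjusted p = 0.00454). Its log2 fold changes were 0.62 and 0.57 against saline 201 to 203 and 300 to 302 (adjusted p = 0.0117 and 0.029). Dlg1, a scaffold that binds GluA1, rose 1.21-fold (adjusted p = 0.0235), and lost its call without AC-T 502 or 602 or saline 202 or 300 (0.0502 to 0.0576) and with the random effect (limma-voom, 0.105). Against the saline sets it was at 0.27 in both (adjusted p = 0.0566 and 0.0666). Camk2a, Dlg4, Nsf, Pick1, Grip1 and Grip2, which phosphorylate, anchor or recycle the receptor, did not pass against all saline libraries. Against saline 201 to 203 Camk2a (log2 0.46), Dlg4 (0.31) and Grip2 (−0.36) passed (edgeR adjusted p = 0.0162, 0.0213 and 0.0159). None of them passed against saline 300 to 302.

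Of the 3 editing enzyme genes 2 fell and 0 rose. Adarb1, whose enzyme edits the Gria2 codon shown above, fell to 0.593 of saline (279 ± 33.3 against 471 ± 42.2 CPM, SD; edgeR adjusted p = 0.00125), with log2 fold changes of −0.86 and −0.64 against the saline sets (adjusted p = 0.000569 and 0.00855). Adarb2, a related brain protein without known editing activity, fell to 0.690 (adjusted p = 0.00974), with −0.63 and −0.44 against the saline sets (adjusted p = 0.00767 and 0.0475), and lost its call without saline 201 to 203 (0.0568), AC-T 501 to 503 (0.0659) or AC-T 600 and 602 (0.0587). Adar was at 0.07 ± 0.08 (SE; adjusted p = 0.624). The same libraries had thalamic sums of 456 to 699 CPM against 897 to 1550 CPM. With the thalamic score as covariate Adarb1 was at −0.33 (adjusted p = 0.584), Adarb2 at −0.17 (0.776), Akap5 at 0.37 (0.612), Shisa9 at −0.17 (0.777) and Vwc2 at −0.05 (0.944). Without saline 300 and without this covariate, Adarb1, Adarb2, Akap5, Shisa9 and Vwc2 passed (edgeR adjusted p 0.00183 to 0.0144).

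**Figure D5:**
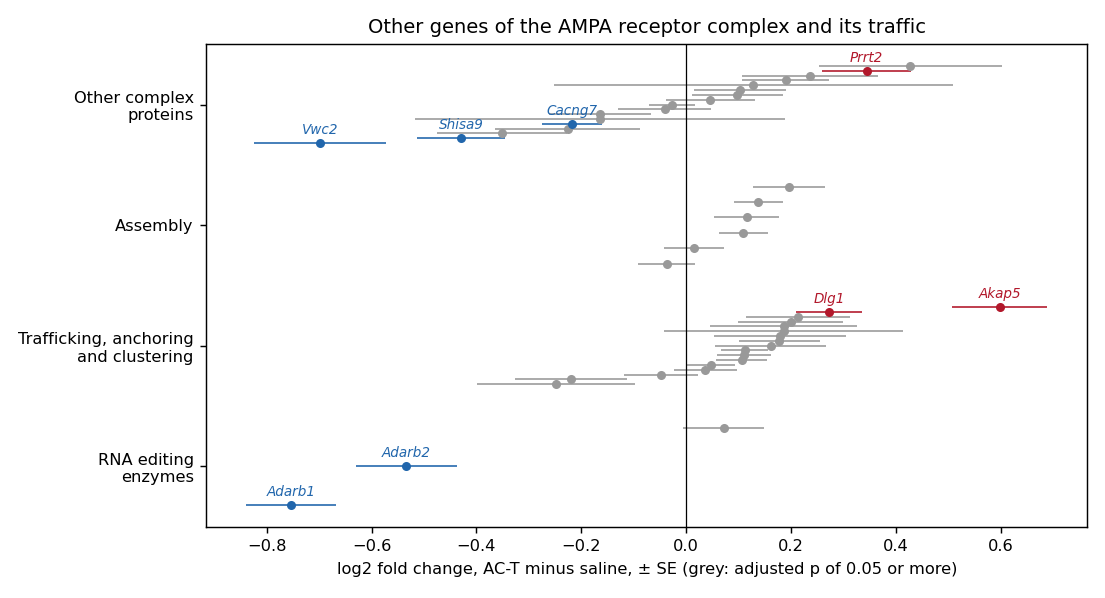
Log2 fold change with its SE (AC-T minus saline) of 43 of the 44 other genes in 4 lists, 1 point per gene; red and blue points passed (higher and lower), grey points did not. The 3 red genes lie between 0.27 and 0.60 and the 5 blue genes between −0.75 and −0.22.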

How the data were processed

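RNA from hippocampal punches of 11 mice was made into stranded poly(A) libraries and sequenced. Per the labels, the authors used Dragen 4.3.6, FastQC 0.11.9 and Salmon 1.9.0 with build GRCm39; the annotation and the step that wrote the table are not given in the sources used here. The deposited values are expected counts (13.7% to 14.7% of values per library have a fraction) and were rounded. They were tested with edgeR 4.0.16 in R 4.3.3 (TMM, minimum count 10, quasi-likelihood F test); 15353 of 17118 genes were tested, and an adjusted p under 0.05 passed. The p-values measure the spread between mice. Fold changes are AC-T minus saline. The test was checked on simulated data, which were drawn without differences by first digit or tissue content. Ratios were tested by exact permutation. Named genes are all members, the listed pathway genes that passed, and the 5 genes most like the member with the largest rise and the one with the largest fall; pathway genes that did not pass are named in addition, and 1 pathway gene that passed is counted but not reported here. The members and lists were chosen with earlier results of these data known. Alternatives were scaling, filters, limma 3.58.1, DESeq2 1.42.0, covariates, and omission of libraries or first digits. The series states 6 AC-T samples; 5 were analysed here. Transcript lengths and sequences come from GENCODE M21 and RefSeq (GRCm38), an older build than GRCm39.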

Additional observations from a re-analysis of the deposited data

Results flagged for a closer look

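Each member and ratio was examined in each group for a single library standing apart, 36 groups in all, of which chance flags about 1 in 20. In AC-T, Cacng8 was low in mouse 503, at 41.15 CPM against 57.6 to 63.5 CPM in the other 4. The dentate granule marker sum was also lowest in this mouse among AC-T libraries, at 327 CPM. In AC-T, Cnih2 was high in mouse 501, at 346.5 CPM against 273 to 292 CPM in the other 4.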

How the results depend on the processing

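Of the 10 members 3 passed, and 3 passed also with RLE, upper-quartile or total scaling, with 3 other filters, with a robust fit, without rounding, with limma-voom and with DESeq2. None passed with the thalamic or CA1 score (0 and 0), 1 with the first digit as random effect, and 1, 6, 0 and 1 without first digits 2, 3, 5 and 6. By unadjusted p under 0.05 these zeros are 0, 1 and 4. Leaving out each library gave 2 to 3 members, 5 to 9 pathway genes (9 in all), 0 to 1 ratios and 625 to 1229 genes over all (1301 in all). For pathway genes the numbers were 0 and 0 with the scores, 4 with the random effect, and 3 and 2 without digits 5 and 6. Over all genes they were 1 and 10 with the scores, 293 with the random effect, 2559 with DESeq2, and 549, 317 and 409 without digits 2, 5 and 6. The split of the 1301 was 751 higher and 550 lower, against 593 and 663 with upper-quartile and 487 and 548 with total scaling. The omission of AC-T 502 gave 625, of AC-T 602 gave 681, of saline 202 gave 815 and of saline 300 gave 832. Ratios past the test numbered 1, but 0 without digits 2, 5 and 6 or with group medians, and 4 without digit 3. Fewer libraries are a limit by construction; the other causes were not tested.

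Values that changed sign belong to members and ratios that did not pass. With the thalamic score they were −0.081 for Gria1, −0.11 for Gria2, 0.25 for Gria4, 0.12 for Cacng2, −0.23 for Cacng8, −0.34 for Cnih2 and −0.085 for Cnih3, and with the CA1 score −0.065 for Cnih2. Without digit 2 they were −0.16 for Cnih2, 0.096 for Gria3/Gria2 and 0.20 for Cnih3/Cnih2. Without digit 3 Cacng3/Cacng8 was −0.17, and without digit 5 Cnih3 was −0.018, Cacng3/Cacng8 −0.031 and Gria1/Gria2 0.087. Group medians gave 0.012 for Gria3/Gria2. Leaving out single libraries gave −0.064 to 0.0054 for Gria1/Gria2 and −0.049 to 0.015 for Gria3/Gria2.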
